A study of Homo sapiens with 12 samples.

Results

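The GREB1 locus was examined as the set of accessible sites in and around the GREB1 gene on chromosome 2 of hg38. Every ATAC-seq peak of 12 libraries whose summit lay in the gene span (chr2:11482888-11642788) or within 50 kb of it (chr2:11432888-11692788) was taken, and peaks that overlapped by at least 1 bp were merged. This gave 29 sites, from 157 summits, of the 166523 merged regions of the genome. Of the 29 sites, 17 lay in the gene span and 12 in the flanks. Their widths ran from 150 to 1724 bp with a median of 433 bp.

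The cells were MDA-MB-453, a human breast cancer line of the luminal androgen receptor type, engineered to express an ectopic estrogen receptor alpha (ER) when doxycycline (Dox) is given. The ER form was wild type (WT), Y537S or K303R, and each of the 3 lines was left untreated or given 1 nM estradiol (E2), 2 ug/mL Dox or both for 2 days. The untreated and E2 cells of each line therefore carried the same ER construct as the Dox cells but were not induced. The labels give 1 library for each form and treatment, and do not say whether a line is a single clone. No line without an ER construct was given Dox in these libraries, so Dox itself and the receptor it induces cannot be told apart. The medium held fetal bovine serum, and the labels do not describe it as stripped of hormone.

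GREB1 is an estrogen-induced gene whose protein acts as a cofactor of the estrogen receptor in breast cells, and its induction is a common readout of receptor activity. The receptor binds DNA as a dimer, often at enhancers inside or far from the genes it regulates, and recruits coactivators that open the surrounding chromatin. The Y537S change lies in the ligand-binding domain and is known for activity without hormone, and K303R lies in the hinge of the protein. ATAC-seq marks open chromatin by the insertion of a transposase. It does not measure receptor binding or transcription.

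The neighbours of GREB1 in the window were E2F6 (chr2:11444375-11466161), a repressor of the E2F family, NTSR2 (chr2:11658178-11670195), a neurotensin receptor, and the start of the LPIN1 interval (chr2:11677544-11827409), which encodes a phosphatidate phosphatase. The microRNA gene MIR4429 (chr2:11540605-11540677) lies inside the GREB1 span. The gene table used (RefSeq, GRCh38.p14) gives gene spans without exons, so sites are placed in a span but not in an exon, intron or UTR. Sites are named below by the distance of their summit from the lower-coordinate end of the GREB1 span.

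Sequences from RefSeq are shown for the promoter of E2F6, which lies under the widest site of the window, and for the microRNA next to the site with the highest Dox difference. The E2F6 promoter is chr2:11466112-11466411, minus strand, and holds 250 bases before and 50 after the start. Its capitals mark GCATGCGC, the core of the NRF1 motif, on either strand. The mature miR-4429 is chr2:11540652-11540671, minus strand, and its capitals mark the seed, bases 2 to 8.
E2F6 promoter: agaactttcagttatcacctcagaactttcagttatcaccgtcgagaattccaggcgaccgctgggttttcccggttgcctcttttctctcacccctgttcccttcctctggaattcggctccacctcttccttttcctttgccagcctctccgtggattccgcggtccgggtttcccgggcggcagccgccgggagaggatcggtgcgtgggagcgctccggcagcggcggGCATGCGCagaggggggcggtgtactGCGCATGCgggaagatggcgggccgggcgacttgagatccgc
hsa-miR-4429: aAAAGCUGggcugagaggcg
The NRF1 core, chosen after the sequence was read, matched 2 times, and 3.05% of 35116 RefSeq promoters of the same length hold it. The palindromic estrogen response element, GGTCA and TGACC spaced by 3 bases, had 0 matches, and 0.0570% of promoters hold it. Its single arm GGTCA, which the full element contains, also had 0 matches on either strand, and 37.4% of promoters hold it. These counts describe the letters of this window alone.

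For each peak the authors' list gives a fold enrichment, the summit pileup plus 1 over the library's background plus 1. This is the authors' value for the single peak and was used to describe sites within a list. To set libraries side by side, the summit pileup (the number of fragments stacked at the summit) was recovered from it. It was written in percent of the library's median summit pileup over the 16630 regions with a peak in all 12 libraries, here called the relative pileup. The libraries were shallow and unequal. They held 39522 to 133963 peaks, and the median pileup of the shared regions was 8 to 34 fragments. A site with no peak was below about the lowest listed pileup, 3 to 5 fragments, which is 11.8% to 45.5% in relative pileup. The K303R untreated library had both the fewest peaks and the highest such limit, so a missing peak says least there. The peak names carry 3 tags, whose meaning the labels do not give. One tag is shared by the untreated and E2 WT libraries and all 4 K303R libraries, another by the 2 Dox WT libraries, and the last by the 4 Y537S libraries. In the WT line, Dox and tag therefore cannot be told apart. ER form and tag cannot be told apart in any comparison of Y537S with the other lines, or of Dox libraries between WT and K303R. The labelled cell line was checked by peaks within 1 kb of a gene end: 7 of its 10 luminal markers had one in all 12 libraries. Of 13 markers of blood, endothelium, fibroblasts, basal epithelium and liver, 9 had none in any library and 1 to 4 had one per library.

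**Figure D1:**
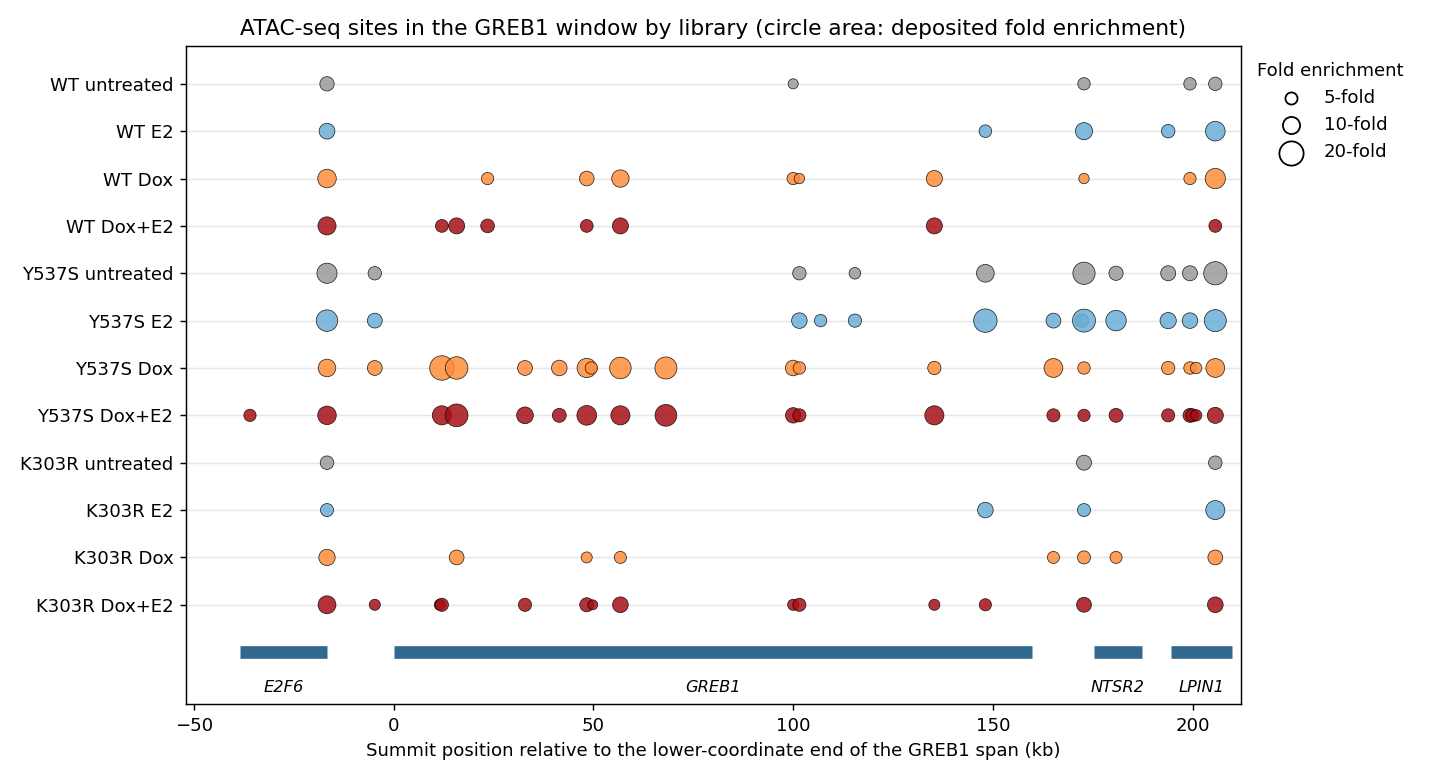
Position of each summit in the GREB1 window (x axis, kb from the lower-coordinate end of the gene span) in each of the 12 libraries (rows), with circle area scaled to the deposited fold enrichment; bars at the foot are gene spans. Circles between 12 and 68.1 kb lie in Dox rows (orange and red), while the sites at -16.7 and 205.7 kb have a circle in every row.

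Open sites inside GREB1 were few without Dox and more frequent with it. In the WT line 1 of the 17 sites of the gene span had a peak in the untreated library, 1 with E2, 6 with Dox and 6 with Dox and E2. The Y537S line had 3 such sites untreated, 4 with E2, 11 with Dox and 10 with Dox and E2. In the K303R line the numbers were 0, 1, 3 and 10. In all 3 lines both Dox libraries had more open sites in the span than either library without Dox. Over all regions of the genome this order also held in the Y537S and K303R lines, but not in WT. In the order untreated, E2, Dox, Dox and E2, the share of all regions with a peak was 40.9%, 45.7%, 55.1% and 55.7% in Y537S. It was 17.0%, 25.1%, 40.9% and 43.8% in K303R, and 20.9%, 30.9%, 32.6% and 25.7% in WT.

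In the flanks, both Dox libraries had more open sites than either library without Dox in the K303R line alone. In the 12 flank sites the WT line had 4, 4, 4 and 2 peaks in the order untreated, E2, Dox, Dox and E2. The Y537S line had 7, 9, 8 and 10, and the K303R line 3, 3, 5 and 4. Of the 17 sites in the span 12 had peaks in Dox libraries alone, against 3 of the 12 in the flanks. Over the whole window that was 15 of 29 sites, or 51.7%, beside 42.4% of all regions.

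The summed relative pileup of the span gave the same order as the counts of sites. It was 37.5% untreated, 31.6% with E2, 288% with Dox and 377% with Dox and E2 in the WT line. In the Y537S line it was 80.6%, 138%, 638% and 608%, and in the K303R line 0%, 60.0%, 106% and 318%. A sum over called peaks also moves with how many peaks a library has. The share of the 29 sites with a peak was therefore read beside the share of all 166523 regions with a peak in the same library. In the 6 libraries without Dox the window was below the genome, at 10.3% to 44.8% against 17.0% to 45.7%. With Dox it was above the genome in 5 of 6 libraries. The margin was widest in Y537S, at 65.5% against 55.1% with Dox and 69.0% against 55.7% with Dox and E2. In WT the shares were close, at 34.5% against 32.6% with Dox and 27.6% against 25.7% with Dox and E2. They were also close in K303R with Dox and E2, at 48.3% against 43.8%. The library below the genome was K303R with Dox alone, at 27.6% against 40.9%.

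**Figure D2:**
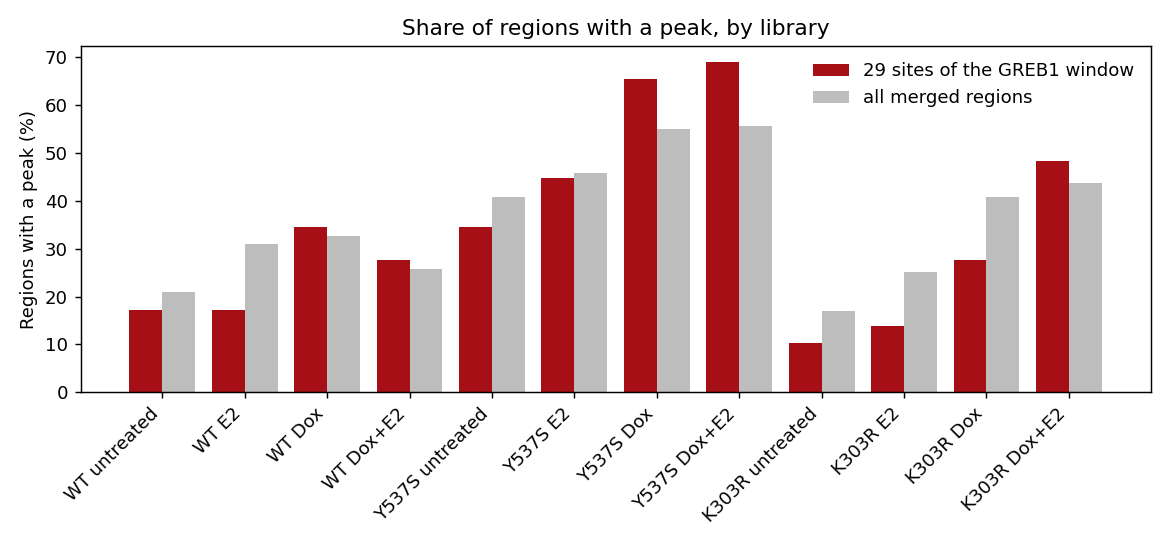
Percent of the 29 GREB1 window sites (red) and of all 166523 merged regions (grey) with a peak in each of the 12 libraries (x axis). The red bar is the higher of the pair in 5 of the 6 Dox libraries, up to 69.0% against 55.7%, and in none of the 6 libraries without Dox. In both WT Dox libraries and in K303R with Dox and E2 the bars are close, as at 34.5% against 32.6% in WT with Dox.

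A site was counted as gained in an ER form when both Dox libraries of that form had a peak and both others had none, and as lost in the reverse case. With 1 library per form and treatment these patterns have no replicates, so the counts are descriptions, read against the share of all regions with the same pattern. In WT, 4 of 29 sites were gained (13.8%, against 4.14% of all regions). In Y537S, 10 were gained (34.5%, against 18.2%). In K303R, 2 were gained (6.90%, against 8.54%), a share near that of the genome. The 2 sites gained in K303R were gained in the other 2 forms as well, which 1.3% of all regions were. Gain in at least 2 forms was seen at 3 sites (4.08% of all regions). Of the 11 sites gained in at least 1 form (37.9% of 29, against 25.5%), 10 lay in the gene span.

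Loss was rarer than gain at the locus, as it was over all regions (8.26% lost and 25.5% gained in at least 1 form). Its shares at the locus were near those of all regions. No site was lost in WT (2.08% of all regions) or in K303R (0.0799%), and 2 were lost in Y537S (6.90%, against 6.71%), so that 2 sites were lost in at least 1 form (8.26% of all regions). The K303R gained count rested on single libraries. It was 10 without the K303R Dox library, when a peak with Dox and E2 was enough, and 5 without the K303R Dox and E2 library. When every list was reduced to the length of the shortest, 2 sites were gained in WT, 5 in Y537S, 0 in K303R and 0 in all 3 forms.

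The 2 sites gained in every form lay in the same part of the span. At the 48.3 kb site (chr2:11530962-11531387), fold enrichment was 7.35 with Dox and 5.59 with Dox and E2 in the WT line. The Y537S line had 12.8 and 13.2, and the K303R line 4.13 and 6.71. No library without Dox had a peak there. At the 56.7 kb site (chr2:11539393-11540247) the WT line had 10.3 and 8.78, the Y537S line 15.8 and 12.5, and the K303R line 4.96 and 8.39, again with no peak without Dox. The end of this site lies 405 bp from the nearest base of the mature miR-4429 shown above. At both sites the Y537S libraries were highest and K303R with Dox alone was lowest. The highest summit of the 56.7 kb site lay between positions 11539543 and 11539718 in 5 libraries and at 11540081 in K303R with Dox.

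In relative pileup the 48.3 kb site stood at 52.9% and 46.2% for WT, 66.7% and 70.8% for Y537S, and 25% and 41.2% for K303R. The 56.7 kb site stood at 76.5% and 76.9% for WT, 83.3% and 66.7% for Y537S, and 31.2% and 52.9% for K303R. At the 56.7 kb site the WT and Y537S values therefore overlapped, and the 2 K303R values were the lowest. These pileups were 4 to 20 fragments, so counting error alone is wide.

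The Dox labels were then permuted within ER forms, over all 84597 regions with a peak in at least 3 libraries, on log2 of the relative pileup plus 10%, with no peak set to 0. Every arrangement was enumerated in a two-sided test, with a smallest possible p of 0.00926. Of the 29 sites, 17 passed the filter. A site with peaks in Dox libraries alone passed through the libraries where it was high, so it had to differ. The 17 are not an even sample of the 29, and no p for Dox is given below as a result for a site chosen as gained or lost. With the Benjamini-Hochberg adjustment at 0.1, no site and none of the 84597 regions passed, and the lowest adjusted p was 0.116. At an unadjusted p under 0.05 the exact permutation test gave 3 sites higher with Dox and 1 lower, where 13.2% of regions were higher and 5.84% lower.

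The log2 differences of the 2 sites gained in every form were 2.54 at 48.3 kb and 2.85 at 56.7 kb. A peak in all 6 Dox libraries and in no other gives the smallest p by construction, so for these sites the test restates how they were chosen. The smallest p was reached, with a higher value on Dox, by 5.56% of all regions.

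**Figure D3:**
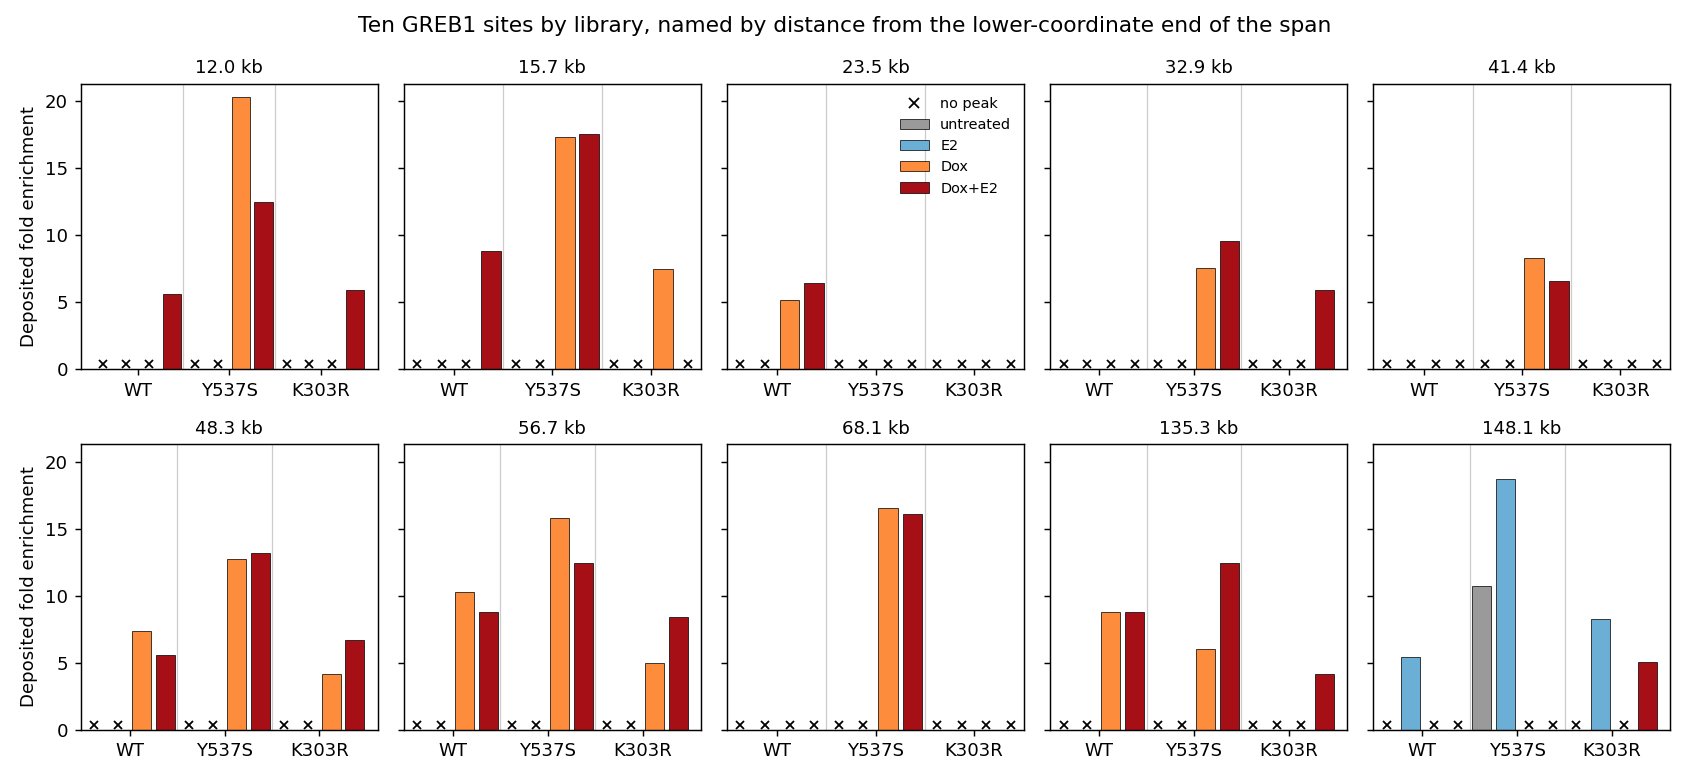
Deposited fold enrichment (y axis, bars from 0) of 10 sites of the GREB1 span in each of the 12 libraries, by ER form (x axis) and treatment (colour); crosses mark libraries with no peak. Single libraries are shown, with no error bars; bars of the first 9 sites are all Dox libraries, and the 148.1 kb site has bars in 4 libraries without Dox.

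The other sites gained in WT were at 135.3 and 23.5 kb. The 135.3 kb site (chr2:11618004-11618622) was gained in WT and Y537S, with fold enrichment of 8.82 with Dox and 8.78 with Dox and E2 in the WT line. The Y537S line had 6.02 and 12.5, and the K303R line had a peak of 4.19 with Dox and E2 alone. Its log2 difference for Dox was 2.11. The 23.5 kb site (chr2:11506050-11506482) had peaks in the 2 WT Dox libraries alone, at 5.14 and 6.39, and was the single site of the window seen in the WT line and in no other.

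Of the 10 sites gained in Y537S, 7 were gained in neither WT nor K303R. The 68.1 kb site (chr2:11550850-11551488) had fold enrichment of 16.6 and 16.1 in the 2 Y537S Dox libraries and no peak in the other 10. Its relative pileup was 87.5% in both, with a 95% Poisson interval of 54.2% to 134% that covers counting error only. The limit without a peak was 12.9% and 11.8% in the 2 Y537S libraries without Dox, and 17.6% to 45.5% in the other forms. The 41.4 kb site (chr2:11524213-11524745) was likewise found in the Y537S Dox libraries alone, at 8.28 and 6.60. Its values are lower, at 41.7% and 33.3% in relative pileup. The limits of the untreated WT library, 37.5%, and of the untreated K303R library, 45.5%, lie above the lower value. Those libraries could have missed a site of this height. The next highest limit was 30.8%, in WT with Dox and E2.

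At 3 further Y537S gained sites the other forms had a peak in 1 Dox library or more. The 12 kb site (chr2:11494507-11495221) had the highest fold enrichment in the span, 20.3 in Y537S with Dox, and 12.5 with Dox and E2. There it was 5.59 in WT and 5.87 in K303R, both with Dox and E2 and with no peak on Dox alone. The 15.7 kb site (chr2:11498501-11498960) reached 17.3 and 17.6 in Y537S. Its WT peak was in the Dox and E2 library, at 8.78, and its K303R peak in the Dox library, at 7.44. The log2 difference for Dox was 1.86 at the 12 kb site and 2.08 at the 15.7 kb site. The 32.9 kb site (chr2:11515458-11515930) had 7.52 and 9.53 in Y537S and 5.87 in K303R with Dox and E2.

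The 10 sites gained in Y537S were followed through the other 2 forms. With Dox alone 4 of them had a peak in WT and 3 in K303R. With Dox and E2 the numbers were 5 in WT and 6 in K303R. Without Dox, the WT untreated library had a peak at 1 of them, the 100 kb site, and the other 3 WT and K303R libraries had none. Since these sites were chosen by Y537S, this order says nothing of Y537S itself. The share of all regions gained in Y537S with a peak in the same WT and K303R libraries was not computed. The counts are therefore not read as a trait of these sites. Of all regions, 32.6% had a peak in WT with Dox and 25.7% with Dox and E2. In K303R the shares were 40.9% and 43.8%. The 2 Y537S Dox libraries also had peaks at the most regions of the genome, 91828 and 92700, and the part of this in the counts was not tested. When a peak had to exceed 45.5% in relative pileup in every library, 5 sites were gained in Y537S, 3 in WT and 0 in K303R.

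The reverse pattern was seen in Y537S at 2 sites, both in the span. The 148.1 kb site (chr2:11630755-11631228) had fold enrichment of 10.7 in untreated Y537S cells and 18.7 with E2, and no peak in either Y537S Dox library. In WT it had a peak with E2 alone, at 5.40. In K303R it had 8.25 with E2 and 5.03 with Dox and E2. The log2 difference for Dox was -1.38. In all 3 lines the E2 library without Dox was the highest of the 4, but swapping the E2 labels within the 6 pairs gave an exact permutation p of 0.125 (adjusted p = 0.958) for a log2 difference of 1.25. The second site lost in Y537S, at 115 kb, was lower, at 4.60 and 5.99 in the 2 Y537S libraries without Dox.

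Among the Dox libraries, the pair with and without E2 differed at the most sites of the window in the K303R line. Each comparison is of 2 single libraries. In K303R with Dox, 8 of the 17 span sites had a peak with E2 alone, 1 without E2 alone and 2 in both. In WT with Dox the numbers were 2, 2 and 4, and in Y537S with Dox 0, 1 and 10. The flanks did not share the K303R order, with peaks at 5 sites with Dox and 4 with Dox and E2. Over the whole window the same 3 numbers were 9, 3 and 5 in K303R, 2, 4 and 6 in WT, and 3, 2 and 17 in Y537S. Whether the lines differ in this was not tested, since 3 pairs with Dox allow no exact permutation p under 0.25. The K303R library with Dox and E2 had 72949 regions with a peak and the one with Dox alone 68105. These totals do not count the single regions that changed. In K303R with Dox, 27.6% of the window sites had a peak, beside 40.9% of all regions. With Dox and E2 it was 48.3% beside 43.8%. The share of all regions with the patterns above was not computed, so the K303R difference is not read as a trait of the locus. The part of list size in the counts was not tested. Swapping E2 labels over all 6 pairs (64 arrangements, smallest p 0.0312) called no site and no region after adjustment, and the lowest adjusted p was 0.958. At an unadjusted p under 0.05 this exact permutation test gave 0 of the 17 sites, 0.623% of regions higher and 0.455% lower.

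Outside the gene, 2 sites at neighbouring genes were open in every library. The site at E2F6 (-16.7 kb, chr2:11465271-11466994) had a peak in 12 of 12 libraries. Fold enrichment in the order untreated, E2, Dox, Dox and E2 was 7.0, 8.49, 11.8 and 11.2 in WT. It was 13.8, 15.7, 10.5 and 11.7 in Y537S, and 6.24, 5.78, 9.09 and 10.9 in K303R. A peak lay over the promoter sequence shown above in 9 of the 12 libraries. The other 3, WT with Dox and E2, K303R untreated and K303R with E2, had their peaks of this site beside the promoter. The site 205.7 kb away (chr2:11687987-11688740), inside LPIN1, also had a peak in every library. In the same order the WT line had 6.13, 13.1, 14.0 and 5.59, the Y537S line 18.4, 16.5, 12 and 8.80, and the K303R line 6.24, 12.4, 7.44 and 8.39. A peak in all 12 libraries was found at 9.99% of all regions. Over the 12 libraries, the fold enrichment of the Dox libraries overlapped that of the others at both sites. Within lines, the Dox values at E2F6 were both higher in WT and K303R and both lower in Y537S, and at the LPIN1 site both were lower in Y537S. In relative pileup, which takes account of depth, the Y537S values with and without Dox overlapped at both sites. At E2F6 both WT Dox values were higher, at 88.2% and 100% against 87.5% untreated and 52.6% with E2, and the K303R values overlapped. At the LPIN1 site the WT values overlapped. Both K303R Dox values were lower there, at 50% and 52.9% against 72.7% untreated and 93.3% with E2.

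These 2 sites have a value in every library and were fitted with limma over all 16630 such regions, with the ER form, Dox in each form, and E2 with and without Dox as terms. The mean Dox difference in log2 relative pileup was 0.27 (SE 0.21, 95% interval -0.16 to 0.69, limma adjusted p = 0.390) at E2F6. At the LPIN1 site it was -0.40 (SE 0.21, 95% interval -0.83 to 0.03, limma adjusted p = 0.178). In this fit 9.92% of the regions were called higher and 12.2% lower with Dox, and neither site was called. The Dox effect in Y537S minus that in WT was -0.43 at E2F6, with an interval of -1.47 to 0.60. At the LPIN1 site it was -0.15, with an interval of -1.20 to 0.89. Intervals this wide leave room for differences of more than 2-fold in these forms.

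A site between GREB1 and NTSR2 was chosen for description after its values were seen. The 172.8 kb site (chr2:11655364-11655995), 12.9 kb beyond the higher-coordinate end of GREB1, had a peak in 11 libraries. Its relative pileup in WT was 62.5% untreated, 63.2% with E2 and 23.5% with Dox, with no peak on Dox and E2. In Y537S it was 67.7%, 67.6%, 25% and 25%, and in K303R 90.9%, 40.0%, 37.5% and 47.1%. The WT and Y537S Dox libraries lay below the others of their line, and in K303R the untreated library stood apart above the other 3. The log2 difference for Dox was -1.20, given with no test because the site was picked on these values.

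**Figure D4:**
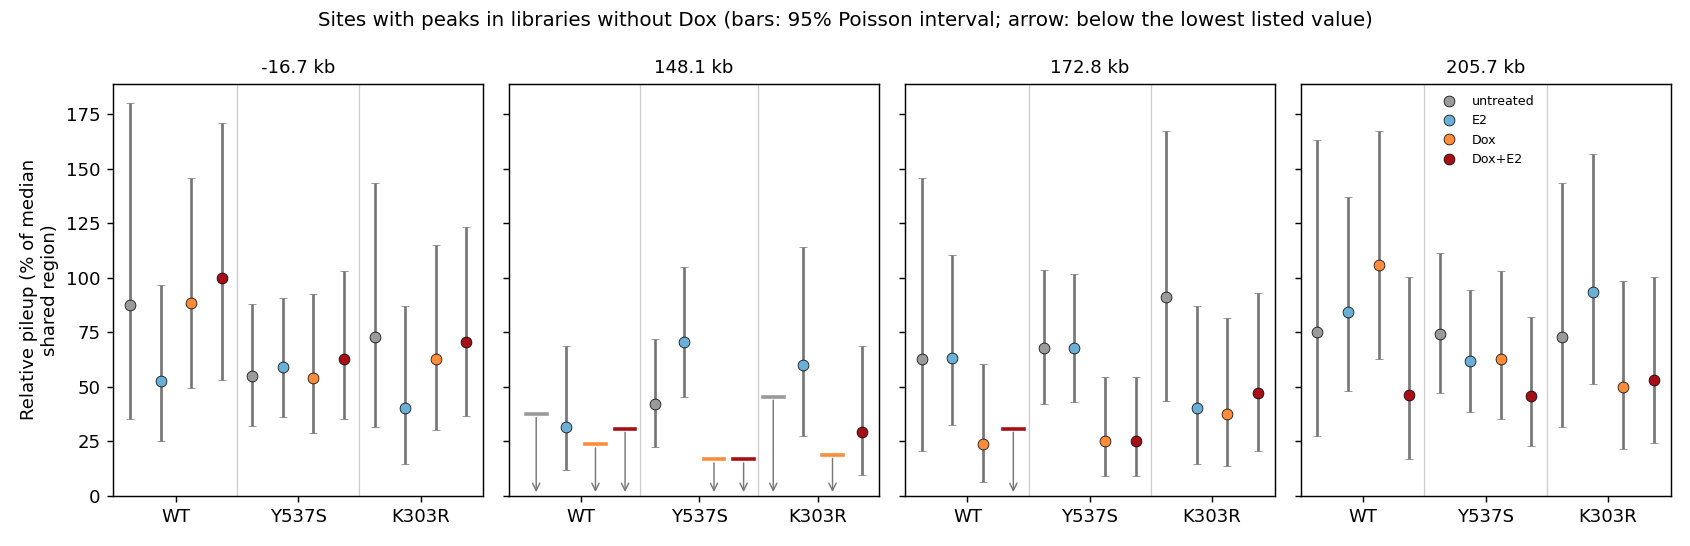
Relative pileup (y axis, percent of the library's median over regions shared by all 12 libraries) at 4 sites by ER form and treatment; bars are 95% Poisson intervals of the pileup, which cover counting error only, and arrows mark the limit where no peak was listed. At 172.8 kb the Y537S Dox values are 25% against 67.7% untreated, while at -16.7 and 205.7 kb the Dox and other values overlap over the 12 libraries.

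The remaining sites were mostly seen in Y537S, and those at gene ends are given first. The 193.9 kb site (chr2:11676350-11676874), just before the LPIN1 interval, had 7.67, 8.98, 6.02 and 5.87 in the 4 Y537S libraries and 6.17 in WT with E2. The 102 kb site (chr2:11584327-11584557) in the GREB1 span had 6.13, 8.24, 5.27 and 5.87 in Y537S, 3.67 in WT with Dox and 5.87 in K303R with Dox and E2. It is the one span site open in all 4 Y537S libraries. The 199.3 kb site (chr2:11682093-11682516), over the long noncoding RNA gene LOC100506405 inside LPIN1, had 7.67, 8.24, 5.27 and 6.60 in Y537S. In WT it had 5.25 untreated and 5.14 with Dox. The 200.9 kb site in LPIN1 was gained in Y537S at 4.51 and 4.40, close to the lowest listed values.

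Farther from gene ends, the 100 kb site (chr2:11582705-11583171) in the span was gained in Y537S, at 8.28 with Dox and 8.07 with Dox and E2. It had 3.5 untreated and 5.14 with Dox in WT, and 4.19 with Dox and E2 in K303R. The 180.8 kb site (chr2:11663324-11663877) inside NTSR2 had 6.90 untreated, 14.2 with E2 and 6.60 with Dox and E2 in Y537S, and 4.96 with Dox in K303R. The 165.1 kb site (chr2:11647929-11648178), just beyond the gene, had 7.49 with E2, 12 with Dox and 5.87 with Dox and E2 in Y537S, and 4.96 with Dox in K303R. The site between E2F6 and GREB1 (-4.74 kb, chr2:11477975-11478224) had 6.13, 7.49 and 7.52 in the first 3 Y537S libraries and 4.19 in K303R with Dox and E2. At these 3 sites outside the span, peaks were present in Y537S cells with and without Dox. Of the 29 sites, 7 had a peak in a single library, with fold enrichment of 3.36 to 5.99, a share below that of all regions (32%). Peaks in the libraries of 1 line alone were found at 9 sites for Y537S (31.0%, against 32.2% of all regions), 1 for WT (3.45%, against 5.03%) and 2 for K303R (6.90%, against 9.64%), each near the share of the genome.

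GREB1 was set beside 36 other estrogen-regulated genes, each with its span and 50 kb on both sides. At least 1 site gained in all 3 forms was found at 10 of the 36 (27.8%), against 13.4% of 19970 protein-coding genes. The listed genes also had more sites, a median of 21 against 12, so the counts are not on equal terms. The list was drawn up with earlier results of these data known, so its share is a description. The 5 with the most such sites were RET, a receptor tyrosine kinase, with 3, CA12, a carbonic anhydrase, with 3, and FHL2, PGR and CCN5 with 2 each. PGR encodes the progesterone receptor, FHL2 a LIM domain cofactor and CCN5 a secreted matricellular protein. GREB1 also had 2, among 29 sites. RET had 19 sites gained in Y537S among 49 and CA12 had 17 among 47, and 6 of the 36 genes had more Y537S gained sites than the 10 of GREB1, as did 3.48% of all protein-coding genes.

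**Figure D5:**
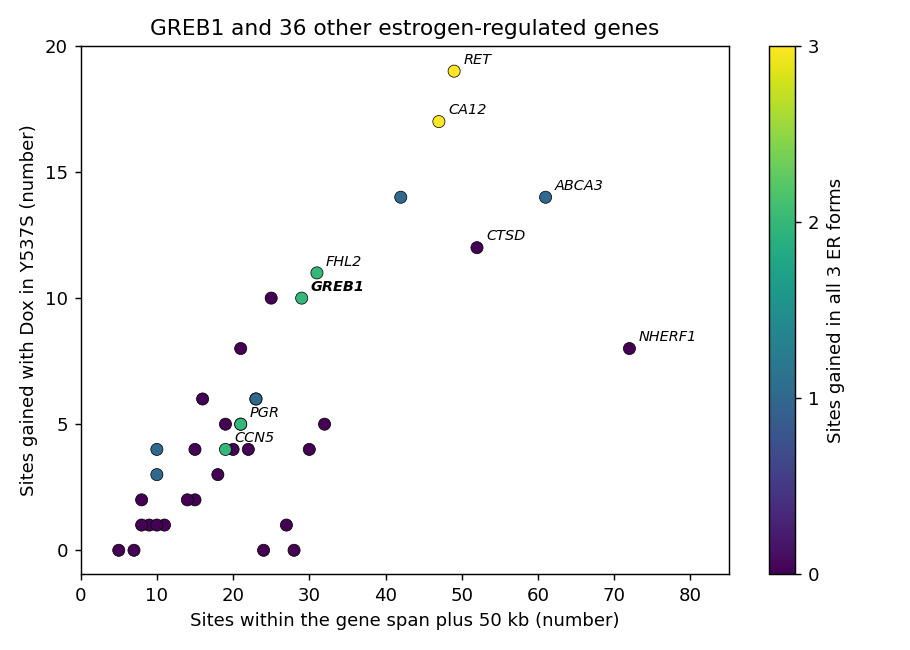
Sites gained with Dox in Y537S (y axis, number) against all sites within the gene span plus 50 kb (x axis, number) for GREB1 and 36 estrogen-regulated genes, each point 1 gene; colour gives the sites gained in all 3 ER forms. GREB1, with 10 gained of 29, lies beside FHL2, with 11 of 31, and below RET and CA12.

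The genes whose summed relative pileup followed that of GREB1 most closely over the 12 libraries were SNRK (Pearson r = 0.988), ADAM19 (0.988), RUVBL1 (0.985), HECW1 (0.984) and CCDC85C (0.982), out of 16867 genes with at least 5 sites. SNRK encodes a kinase, ADAM19 a membrane metalloprotease, RUVBL1 an ATPase of chromatin remodelling complexes and HECW1 a ubiquitin ligase. Such values were common: the median r over all genes was 0.713 and 1 gene in 10 exceeded 0.924. The 12 points share their libraries, their depth and the Dox treatment, and none of the 5 was among the first 5 by Spearman rank.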

How the data were processed

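Per the labels' protocols, nuclei were tagmented and sequenced as 75 bp paired ends. Bowtie2, SAMtools, Picard, FastQC and MACS2 and the hg38 build are named in the submitters' processing notes. Tool versions, settings and any shift of reads for the transposase were not found among the sources. The authors deposited 1 peak list per library with a score, a fold enrichment (ratio), −log10 p and −log10 q values, and the summit offset in bp. The labels give 1 library per group and do not mention pooling.

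From these lists the pileup was recovered from the fold steps and scaled to relative pileup. Merged regions were built on chromosomes 1 to 22 and X, without Y. The work used Python 3.11.15, numpy 2.4.6, pandas 2.3.3 and scipy 1.17.1. Exact permutation tests used a pseudocount of 10% and an adjusted threshold of 0.1. Regions open in all 12 libraries were fitted with limma 3.58.1 (R 4.3.3, threshold 0.05). Scripts were tested on simulated data. Sites were named by 3 rules: the 10 gained or lost in the most forms (ties by the weakest −log10 q), those within 1 kb of a gene end, and those open in all 12 libraries. Members and lists were chosen with earlier results of these data known. P-values measure the spread between single libraries that stand in for replicates.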

Additional observations from a re-analysis of the deposited data

How the results depend on the processing

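No replicate block could be fitted, since the labels give 1 library per ER form and treatment and no replicate numbers; the tests were instead stratified by form and matched treatment. The counts of gained sites depended on which peaks were admitted, and the cause was not tested beyond the smaller lists themselves. Gained in WT (4), the count was 2 with −log10 q of at least 10, 2 at equal list length (39522 peaks), and 4 to 6 leaving out 1 library. Gained in Y537S (10), it was 6 at −log10 q of at least 10, 5 at equal length, 5 above a common relative pileup of 45.5%, and 10 to 12 leaving out 1 library. Gained in K303R (2), it was 0 at −log10 q of at least 5, 1 at 10, 0 at equal length, 0 above the common floor, and 2 to 10 leaving out 1 library. Gained in all 3 forms (2), it was 0 under each of those 4 rules and 2 to 3 leaving out 1 library. Lost in WT (0), it was 1 at −log10 q of at least 5, 1 at equal length, 1 above the floor and 0 to 2 leaving out 1 library (2 without WT untreated, 1 without WT Dox). Lost in Y537S (2), it was 1 at −log10 q of at least 5, 1 above the floor, 4 with flanks of 100 kb, and 2 to 4 leaving out 1 library (4 without Y537S untreated).

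Of 27 alternatives for Dox, 1 called sites by the exact permutation test, the one restricted to regions with a peak in at least 6 libraries, with 2 sites that entered it through their Dox libraries alone, so that this call carries no support; the lowest adjusted p ranged from 0.0689 to 0.358. All 27 alternatives for E2 called 0 sites, with lowest adjusted p from 0.891 to 1. The log2 difference for Dox was followed at the tested sites named by the 3 rules and at 172.8 kb. The tested sites at -4.74, 100, 165.1 and 180.8 kb were not followed. Among those followed, the difference reversed at 3 sites. At E2F6 it was -0.31 at equal list length, and at 102 kb -0.11 with the lowest listed value where no peak was found. At 199.3 kb it was 0.35 without WT untreated, 0.27 without WT Dox and E2, and 0.0047 without the WT form. Leaving out 1 library, the range at 199.3 kb was -0.60 to 0.35. By Spearman rank, 0 of the 5 genes most like GREB1 stayed among the first 5. Depth limits the rest: a missing peak allows a relative pileup of up to 45.5% in K303R untreated.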
